A study of Mus musculus with 6 samples.

Results

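Transcript levels of 10 genes whose human counterparts are mutated in primary microcephaly, a disorder of reduced brain size at birth, were compared in neural stem cells from the adult mouse brain, quiescent against activated. The genes were Aspm, Wdr62, Mcph1, Cdk5rap2, Cenpj, Stil, Cep152, Cep135, Cep63 and Plk4. They were read from the probe sets that the platform annotation pairs with exactly 1 gene, that gene being one of the 10, which gave 21 probe sets out of 34945 that name a single gene and 10 genes out of 18193. Of the 10 genes, 6 have several probe sets and 4 have 1. Both cell populations were sorted from the adult ventricular-subventricular zone, the neurogenic layer along the lateral ventricles. Quiescent cells carried GFP under control of the GFAP promoter (GFAP::GFP) and the surface protein CD133 and lacked CD24, and activated cells met the same criteria and also carried the EGF receptor. There were 3 one-colour arrays per population, called biological replicates in the labels, and this small number limits how precise any value is. The labels used here name no strain, sex or exact age and no number of animals per array.

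Centrioles are the paired cylinders at the core of the centrosome, and they are copied once per cell cycle beside their parents. The kinase Plk4 starts the copy, and the scaffold proteins Cep152 and Cep63 bring Plk4 to the parent centriole. Stil joins Plk4 to the cartwheel that sets the shape of the new centriole, and Cenpj and Cep135 act in building that centriole. Cdk5rap2 anchors the pericentriolar material that nucleates microtubules, Aspm and Wdr62 gather at the poles of the mitotic spindle, and Mcph1 acts in chromosome condensation and the DNA damage response. In the embryonic brain these genes are known for their part in the division of neural progenitors.

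Of the 10 genes, 6 were higher in activated cells and 0 were lower, at an adjusted p under 0.05 in limma. This linear model estimates a spread for each gene and draws it toward a trend fitted over all genes. Of all 11575 genes tested, 17.3% were called higher and 17.6% lower (34.9% in either direction), and without activated array 2 the number of all genes called higher fell from 2004 to 1291. The arrays of 7 of the 10 genes did not overlap, activated being above quiescent, which held for 25.1% of all genes tested (50.7% did not overlap in either direction). The 6 genes called were Aspm, Wdr62, Plk4, Stil, Cenpj and Cep135, and Cep152, Cep63, Cdk5rap2 and Mcph1 did not pass at the gene level. Values are log2 signals from the MAS5 algorithm, each difference is activated minus quiescent with the SE of the fit (n = 3 arrays per group), and p-values are adjusted by Benjamini-Hochberg over all genes or all probe sets tested. The median difference of the 10 genes was 2.21, against 0.01 over all genes tested. A gene is represented by its brightest probe set, and all 21 probe sets passed the filter on dim signals, a mean log2 signal of 6.02 over the 6 arrays. Wdr62 and Stil were bright enough through their activated arrays alone, their quiescent means being below that level. In bulk arrays, fewer cells that express a gene and less RNA per cell cannot be told apart.

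**Figure D1:**
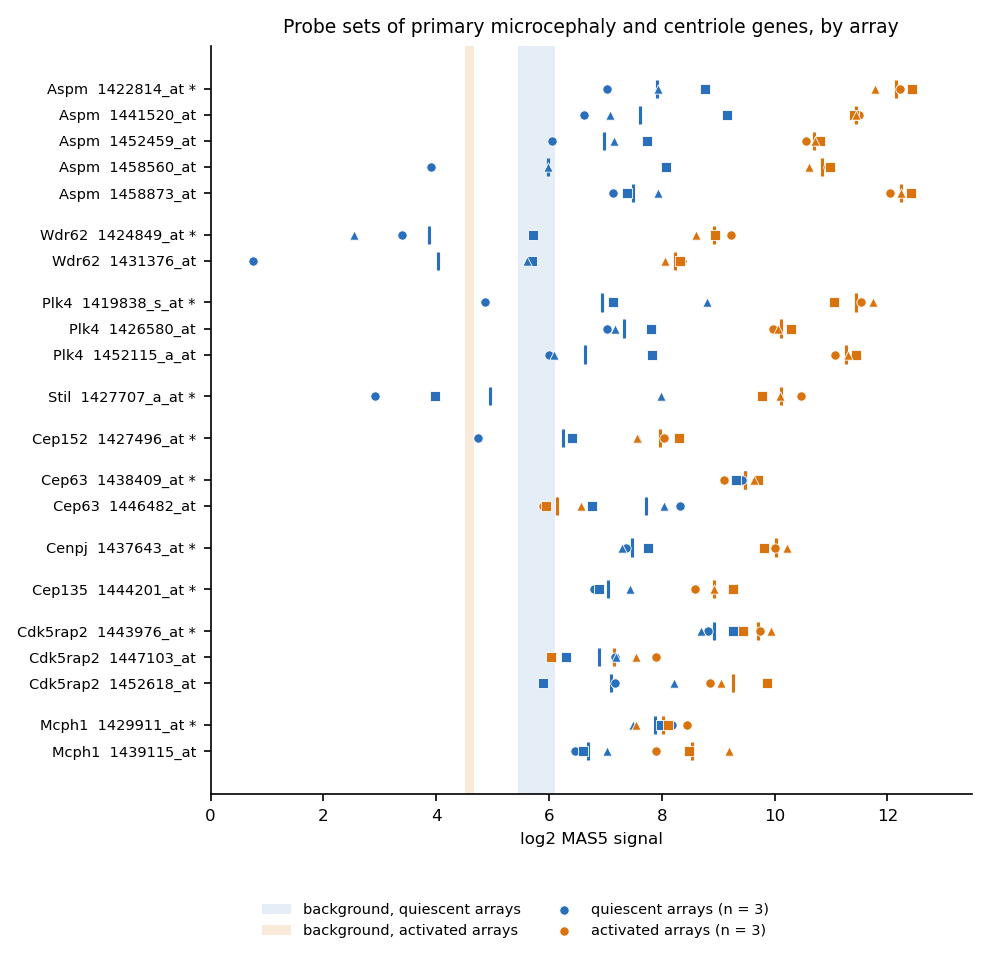
Log2 MAS5 signal (horizontal axis) of the 21 probe sets on each array, quiescent in blue and activated in orange, with circles, squares and triangles for replicates 1, 2 and 3 and vertical bars for group means. Shaded bands span the array backgrounds, asterisks mark the probe set that represents the gene, and the activated arrays of Aspm, Wdr62, Plk4, Stil, Cenpj and Cep135 lie to the right of all their quiescent arrays.

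The DNA around the annotated starts is shown for 3 of the largest differences (Aspm, Wdr62, Stil). It is also shown for the kinase that starts centriole copying (Plk4) and for the gene with the smallest difference (Cep63). Whether these genes share regulators was not tested. Each window runs from 250 bases before to 50 bases after the start, 5′ to 3′ on the strand of the gene, from RefSeq on build GRCm38.p6. Capitals mark matches on either strand to the CCAAT box, to the cell cycle genes homology region (CHR, searched as TTTGAA or TTCGAA) and to the E2F site (searched as TTTCCCGC, TTTCGCGC, TTTGCCGC or TTTGGCGC).
Aspm (chr1:139454523-139454822, plus strand): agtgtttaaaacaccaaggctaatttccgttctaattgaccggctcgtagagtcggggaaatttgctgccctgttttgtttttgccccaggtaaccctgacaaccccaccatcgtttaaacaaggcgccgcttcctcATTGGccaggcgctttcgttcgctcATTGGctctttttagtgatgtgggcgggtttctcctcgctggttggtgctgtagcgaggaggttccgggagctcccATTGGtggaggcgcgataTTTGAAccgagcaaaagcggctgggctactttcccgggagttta
Wdr62 (chr7:30280372-30280671, minus strand): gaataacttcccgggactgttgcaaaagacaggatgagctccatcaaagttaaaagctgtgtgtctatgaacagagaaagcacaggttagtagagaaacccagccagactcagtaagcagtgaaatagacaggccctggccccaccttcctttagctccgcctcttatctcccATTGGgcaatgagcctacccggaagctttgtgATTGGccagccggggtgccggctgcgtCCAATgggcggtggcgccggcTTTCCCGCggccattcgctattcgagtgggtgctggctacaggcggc
Stil (chr4:114999868-115000167, plus strand): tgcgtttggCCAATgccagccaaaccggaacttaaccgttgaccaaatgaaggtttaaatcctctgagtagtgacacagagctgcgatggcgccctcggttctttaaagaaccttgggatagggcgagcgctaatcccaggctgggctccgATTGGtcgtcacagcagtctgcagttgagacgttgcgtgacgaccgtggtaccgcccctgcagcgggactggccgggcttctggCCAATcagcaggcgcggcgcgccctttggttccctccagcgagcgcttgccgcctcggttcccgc
Plk4 (chr3:40799701-40800000, plus strand): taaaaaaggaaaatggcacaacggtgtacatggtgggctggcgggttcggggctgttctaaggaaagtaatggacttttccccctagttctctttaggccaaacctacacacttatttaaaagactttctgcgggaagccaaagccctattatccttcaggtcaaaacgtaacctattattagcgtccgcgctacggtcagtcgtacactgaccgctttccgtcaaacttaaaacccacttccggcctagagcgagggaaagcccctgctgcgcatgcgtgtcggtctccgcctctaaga
Cep63 (chr9:102626075-102626374, minus strand): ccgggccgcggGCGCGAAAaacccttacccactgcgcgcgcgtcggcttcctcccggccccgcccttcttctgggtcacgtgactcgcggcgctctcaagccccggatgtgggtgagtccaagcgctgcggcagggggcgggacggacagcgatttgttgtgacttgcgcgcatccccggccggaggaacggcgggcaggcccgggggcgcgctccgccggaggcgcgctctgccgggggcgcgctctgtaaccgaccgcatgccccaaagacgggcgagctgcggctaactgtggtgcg
Windows were read for 9 of the 10 genes, all but Mcph1, and for Wdr62 the first of its entries is shown. The CCAAT letters stood in 5 of the 9, against 37.4% of all 32851 windows in the table. Aspm, Wdr62, Stil and Cep152 held 3 copies each and Cep135 held 1. The CHR letters stood in 3 of the 9 (Aspm, Cdk5rap2 and Cep152), against 19.2% of all windows, and in Aspm they began 6 bases after the start. The E2F letters stood in 2 of the 9 (Wdr62 and Cep63), against 2.26%. No match overlapped a match of another motif in these windows. Plk4 and Cenpj held none of these letters in the window, which says nothing about the factors that bind there. A match is a description of the sequence and not a measured binding site.

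The genes of the spindle pole showed large differences. Aspm, which organises microtubule minus ends at the poles, read 7.02, 8.77 and 7.94 on quiescent arrays 1, 2 and 3 at its brightest probe set (1422814_at), and 12.22, 12.43 and 11.79 on the activated arrays. The groups lay far apart, and quiescent array 2 was the highest of its group. The difference was 4.24 ± 0.44 (adjusted p = 0.0001), or 18.9-fold, with a 95% interval from 3.27 to 5.20. All 5 Aspm probe sets were called higher among the 22607 probe sets tested, where 15.6% were called higher. Their differences ranged from 3.71 ± 0.46 (1452459_at, adjusted p = 0.000275) to 4.87 ± 0.83 (1458560_at, adjusted p = 0.00161), and in both of these quiescent array 1 was at background. The smallest SE belonged to 1458873_at, which read 7.13, 7.38 and 7.94 in quiescent and 12.05, 12.42 and 12.25 in activated cells and differed by 4.75 ± 0.33 (adjusted p = 3.51e-05). In 4 of the 5 Aspm probe sets quiescent array 2 read highest among the quiescent arrays, reaching 9.16 at 1441520_at against 6.62 and 7.08 on arrays 1 and 3.

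Wdr62, a spindle pole scaffold protein, was dim in quiescent cells. Its brighter probe set (1424849_at) read 3.39, 5.72 and 2.54 there and 9.24, 8.94 and 8.61 in activated cells, and 2 of the 3 quiescent values were at or below the array background. Background was taken as the 95th percentile of 27 control probe sets for bacterial transcripts, which lay between 5.45 and 6.10 on quiescent and between 4.52 and 4.67 on activated arrays. With quiescent values raised to background, Wdr62 was 9.0-fold higher in activated cells at this probe set, and the fitted difference was 5.05 ± 0.82 (adjusted p = 0.00107). Here and below, a fold given as at least takes account of background at the probe set used, not of sampling error. Other probe sets or settings can give less. The other probe set (1431376_at) read 0.76, 5.70 and 5.62 against 8.35, 8.32 and 8.05, with quiescent array 1 at background. It was at least 5.41-fold higher (adjusted p = 0.0198 over all probe sets). The groups did not overlap at either probe set, and the spread among quiescent arrays was wide. Without quiescent array 1 the other probe set became the brighter one, and the difference of Wdr62 was 2.58 (adjusted p = 0.00614). With values raised to background it was 3.17 and with 64 added to the linear signals 2.70, both called. Without any 1 of the activated arrays, or with the filter at the median, the mean signal of Wdr62 fell below the filter and it was not tested.

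Plk4 and Stil, which start the new centriole, also rose. Plk4 at its brightest probe set (1419838_s_at) read 4.87, 7.14 and 8.80 on quiescent arrays and 11.54, 11.05 and 11.75 on activated arrays. Quiescent array 1 was at background, and with it raised to background the fold at this probe set was 17.1. The fitted difference was 4.51 ± 0.79 (adjusted p = 0.00163). The other Plk4 probe sets were called too. At 1452115_a_at the readings were 6.00, 7.82 and 6.10 against 11.06, 11.45 and 11.30, a difference of 4.63 ± 0.50 (adjusted p = 0.000137). Quiescent array 1 was at background there too, and with it raised to background the fold was 24.2. At 1426580_at the readings were 7.02, 7.80 and 7.17 against 9.96, 10.30 and 10.07, all above background, a difference of 2.78 ± 0.39 (adjusted p = 0.000537). This is 6.86-fold, less than at the other Plk4 probe sets. The _s_at probe set can detect several transcripts, and Plk4 was also called when such probe sets were left out. The order of the quiescent arrays was not shared by the Plk4 probe sets, array 3 being highest at the first and array 2 at the others.

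Stil, the protein that Plk4 phosphorylates at the start of cartwheel assembly, has 1 probe set here (1427707_a_at). It read 2.92, 3.98 and 7.98 on quiescent arrays 1, 2 and 3 and 10.47, 9.79 and 10.10 on activated arrays. Arrays 1 and 2 were at background and array 3 was well above it, so the groups were separate but the quiescent spread (SD 2.67) was the main uncertainty. Stil was at least 12.2-fold higher in activated cells, with a fitted difference of 5.15 ± 1.06 (adjusted p = 0.0041) and a 95% interval from 2.81 to 7.50. With 64 added to the linear signals the difference was 3.27 (adjusted p = 0.00059).

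The scaffolds that bring Plk4 to the parent centriole did not pass the test. Cep152 (1427496_at) read 4.75, 6.41 and 7.58 on quiescent arrays and 8.03, 8.31 and 7.57 on activated arrays. The highest quiescent array and the lowest activated array met, and quiescent array 1 was at background. The difference was 1.72 ± 0.72 (adjusted p = 0.0862), with a 95% interval from 0.13 to 3.31 before adjustment for the number of genes. Without quiescent array 3 the difference was 2.39 and was called (adjusted p = 0.0186), as it was after quantile normalization (adjusted p = 0.0417) and with arrays centred on their medians (adjusted p = 0.0181). Without quiescent array 1, which was at background, the difference was 0.97 and was not called (adjusted p = 0.213).

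Cep63, the partner of Cep152, gave different readings at its 2 probe sets. At the brighter one (1438409_at) the quiescent arrays read 9.42, 9.31 and 9.67 and the activated arrays 9.10, 9.71 and 9.64, a difference of 0.02 ± 0.34 (adjusted p = 0.973) with a 95% interval from -0.74 to 0.77. The groups overlapped there. At 1446482_at the quiescent arrays read 8.32, 6.76 and 8.05 and the activated arrays 5.89, 5.94 and 6.58, so every quiescent array was above every activated array. This difference of -1.58 ± 0.61 missed the threshold (adjusted p = 0.0721), and of the 21 probe sets it was the one with a negative value. It was called without quiescent array 2 (-2.05, adjusted p = 0.0352), with values raised to background (adjusted p = 0.0466) and without the mean-variance trend (adjusted p = 0.044).

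Cenpj and Cep135, which act in building the new centriole, rose by smaller amounts with little spread. Cenpj (1437643_at) read 7.36, 7.76 and 7.29 in quiescent and 10.01, 9.81 and 10.23 in activated cells. All arrays were above background and the groups were far apart relative to their SDs of 0.25 and 0.21. The difference was 2.55 ± 0.38 (adjusted p = 0.000652), or 5.84-fold. Cep135 (1444201_at) read 6.81, 6.89 and 7.43 against 8.59, 9.26 and 8.92, a difference of 1.88 ± 0.45 (adjusted p = 0.00894), or 3.69-fold. When this probe set was tested among all probe sets without activated array 2, its adjusted p was 0.0526.

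Cdk5rap2 and Mcph1 were not called at their brightest probe sets, and each had another probe set that was. Cdk5rap2, which recruits the gamma-tubulin ring complex to centrosomes, read 8.81, 9.25 and 8.69 against 9.73, 9.43 and 9.94 at 1443976_at. The groups did not overlap, and the difference of 0.78 ± 0.35 missed the threshold (adjusted p = 0.106). It was called with arrays centred on their medians (1.34, adjusted p = 0.0167), with arrays scaled to the hybridisation controls (1.43, adjusted p = 0.0419) and with the mean of the Cdk5rap2 probe sets (1.07, adjusted p = 0.0436). At 1452618_at Cdk5rap2 read 7.18, 5.89 and 8.22 against 8.86, 9.87 and 9.05, a difference of 2.16 ± 0.61 (adjusted p = 0.0203). That call was lost without quiescent array 2 (adjusted p = 0.0577), activated array 2 (adjusted p = 0.0911) or activated array 3 (adjusted p = 0.0507). At 1447103_at the groups overlapped, with 7.18, 6.30 and 7.19 against 7.89, 6.03 and 7.54 (0.26 ± 0.64, adjusted p = 0.781).

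Mcph1 read 8.18, 7.99 and 7.49 in quiescent and 8.44, 8.10 and 7.54 in activated cells at 1429911_at. These groups overlapped and differed by 0.14 ± 0.47 (adjusted p = 0.833), with a 95% interval from -0.89 to 1.17. At 1439115_at Mcph1 read 6.46, 6.59 and 7.03 against 7.90, 8.48 and 9.20, a difference of 1.83 ± 0.52 (adjusted p = 0.0207). That call was lost without quiescent array 2 (adjusted p = 0.0504), activated array 2 (adjusted p = 0.0638) or activated array 3 (adjusted p = 0.107). With the mean of its probe sets, Mcph1 differed by 0.99 (adjusted p = 0.0474).

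**Figure D2:**
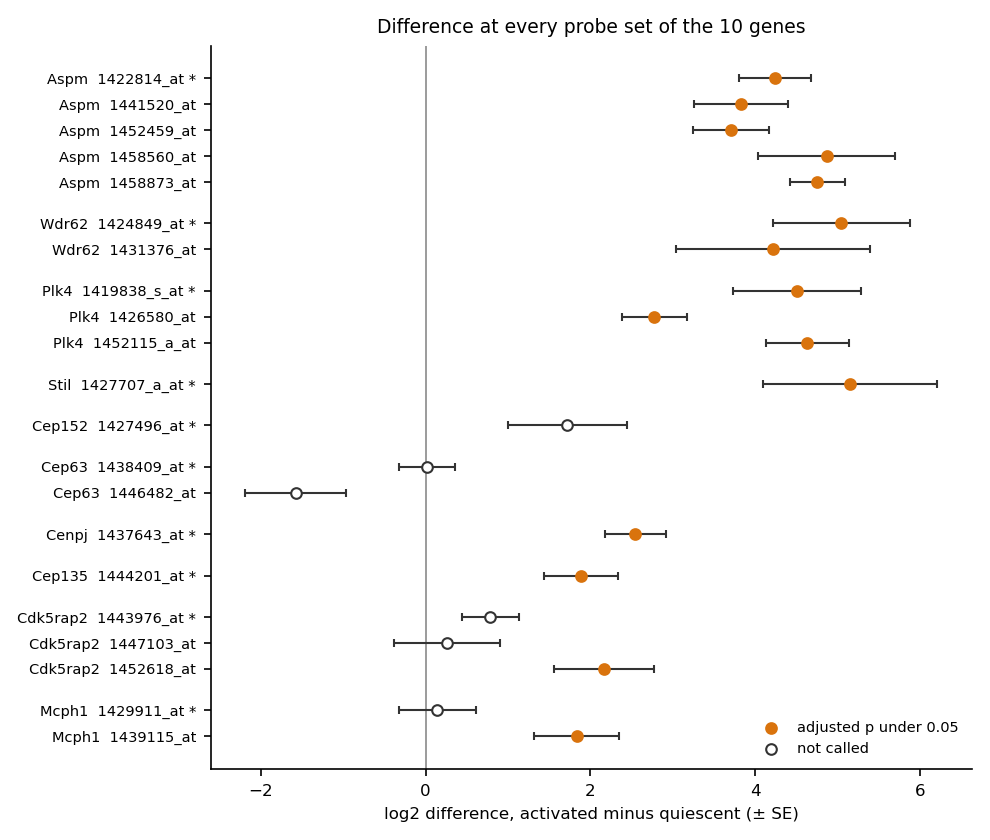
Log2 difference, activated minus quiescent, at each of the 21 probe sets with the SE of the limma fit as bars, filled where the adjusted p over all probe sets was under 0.05. All 10 probe sets of Aspm, Wdr62 and Plk4 lie between 2.78 and 5.05, whereas those of Cdk5rap2, Mcph1 and Cep63 differ from one another within each gene.

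Over all probe sets of the 10 genes, 15 of 21 were called higher and 0 lower, against 15.6% and 16.3% of all probe sets tested. The arrays did not overlap, with activated above quiescent, at 16 of the 21, where 23.6% of all probe sets tested showed this, and in either direction at 17, against 48.1%. At 4 of the 21 the quiescent mean was below the filter level, so they passed it through their activated arrays alone. They are both Wdr62 probe sets, Stil and Aspm 1458560_at, and these counts include them. Counting a gene when any of its probe sets was called gives 8 of 10 genes. To compare probe sets of 1 gene, the gap between each further probe set and the brightest was computed on every array for the 11 such pairs. In Cep63 the gap was -1.10, -2.55 and -1.62 on quiescent and -3.21, -3.77 and -3.06 on activated arrays, and it moved by -1.59 with no overlap. A two-sided exact permutation test gave p = 0.1, which is as low as 3 arrays against 3 can go, and 0.55 after adjustment over the 11 pairs. For Mcph1 the gap moved by 1.69 (exact permutation p = 0.2, 0.66 adjusted) and for Cdk5rap2 at 1452618_at by 1.38 (exact permutation p = 0.3, 0.66 adjusted). With 3 arrays a group this permutation test cannot reach 0.05, and no other test of the gaps was run. The transcripts that each probe set detects were not analysed here.

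The quiescent arrays spread more widely than the activated arrays. The SD was larger among quiescent than among activated arrays at 16 of the 21 probe sets, with medians of 0.85 and 0.33, against medians of 0.55 and 0.37 over all probe sets tested. Quiescent array 1 was the lowest of its group at 13 of the 21, quiescent array 2 was the highest at 10 and quiescent array 3 at 9. At 8 of the 21 probe sets at least 1 quiescent array was at or below background, and at 0 an activated array was. A list of 25 matched proliferation genes averaged 6.43, 8.35 and 7.09 on quiescent arrays 1, 2 and 3 and between 11.07 and 11.14 on activated arrays, and the 10 genes averaged 6.35, 7.32 and 7.54 against 9.61 to 9.74. Array 2 was therefore the highest quiescent array for the proliferation list and for 4 Aspm probe sets, and array 3 was the highest for Stil, Cep152 and the brightest Plk4 probe set.

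**Figure D3:**
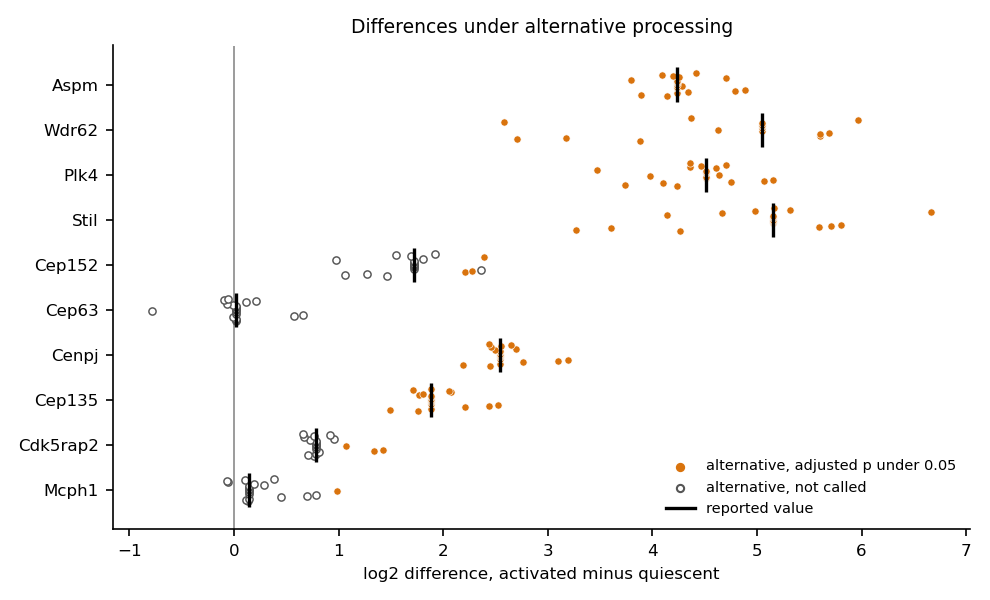
Log2 difference, activated minus quiescent, of each of the 10 genes as reported (black) and under up to 19 alternative settings in which the gene was tested (points, filled where the adjusted p was under 0.05). The values of Aspm range from 3.79 to 4.88 and those of Stil from 3.27 to 6.66, and those of Mcph1 and Cep63 lie on both sides of 0.

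Array properties that moved with the groups are given here because they touch these values. The hybridisation controls averaged 14.33 ± 0.53 (SD, n = 3) among quiescent arrays against 13.69 ± 0.05 among activated arrays, and the background was 5.67 ± 0.37 against 4.60 ± 0.07. The 3′ minus 5′ gap of the Gapdh controls, which widens as RNA degrades, was 2.05 ± 0.52 against 1.37 ± 0.17 (exact permutation p = 0.1 for each of these measures). The same gap of the actin controls was -0.05 ± 0.16 against 0.07 ± 0.16 (exact permutation p = 0.4), a difference in the other direction. With arrays scaled to the hybridisation controls, the median difference of all genes tested rose to 0.66, the share of calls that were higher rose from 49.6% to 76.4%, and 7 of the 10 genes were called higher and 0 lower. Summed linear signals of marker lists also moved. Of 8 matched quiescent stem cell and astrocyte markers 8 fell, with sums of 117076 to 182466 on quiescent and 23139 to 28541 on activated arrays. Of 8 neuroblast markers 4 rose, Sox11, Dlx2, Cd24a and Dcx (sums 4501 to 11095 against 41086 to 47471). Tubb3, Nrxn3, Stmn2 and Gad1 were not called, and the difference of Gad1 was -0.24. The activated sums came mostly from Sox11, Dlx2 and Cd24a. Cd24a rose by 4.13, although both populations were sorted as lacking the CD24 protein. The reason was not tested. Of 7 oligodendrocyte markers 7 fell (16343 to 63004 against 2177 to 5374), as did 3 of 4 tested endothelial (984 to 3240 against 144 to 229) and 4 of 5 tested pericyte markers (5058 to 8968 against 366 to 668). Microglial markers summed to 340 to 702 against 148 to 184, and Trem2, C1qa and Aif1 were at background on all 6 arrays. Of 8 matched ependymal markers, 3 were tested, of which Rsph1 and Ccdc153 fell and Dnah11 rose (sums 1127 to 1580 against 1752 to 2661). The activated sums came mostly from Dnah11, which read 7.1, 7.4 and 6.3 on quiescent and 11.3, 11.2 and 10.5 on activated arrays. Foxj1, Cfap43 and Tmem212 were too dim to be tested, and each read lower on every activated array than on every quiescent array. Foxj1 read 8.07, 7.59 and 6.65 against 5.88, 1.70 and 4.91. Hydin and Spag6 were at background on all 6 arrays. The part of these cell types in the differences of the 10 genes was not tested.

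The genes around the 10 were followed in 6 lists, of which 167 of 175 distinct genes were matched and 158 were bright enough to be tested. The share of genes called higher was above the 17.3% of all genes in each list, but the median difference varied from list to list. Some list genes passed the filter level of 6.02 through their activated arrays alone, and the counts include them. Among those named below, these are Bub1, Bub1b, Ckap2, Cep85 and Ccna1. Their quiescent means were 4.24, 4.81, 4.81, 5.71 and 4.49. In a broad list of 42 other genes drawn up around centriole assembly, 18 rose and 0 fell, with a median difference of 1.09. The list also holds genes with other roles at the centrosome, such as Nek2, Crocc, Cep164 and Odf2, so its values do not describe assembly alone. Without activated array 2 the number that rose was 11, and without quiescent array 3 the number that fell was 1. The centrosomal kinase Nek2 was at least 15.9-fold higher (adjusted p = 0.000121), the centrosomal protein Cep85 at least 9.11-fold (adjusted p = 0.000472), and Tedc1 differed by 3.24 ± 0.66 (adjusted p = 0.00382). Nek2 was read by an _s_at probe set, where it differed by 4.12. Without such probe sets Nek2 differed by 2.26 (adjusted p = 0.0031), and with the mean of probe sets by 1.58 (adjusted p = 0.0334). Cep85 differed by 2.21 with the mean of probe sets, against 3.42, and the median of the list was 0.64. Among the brightest that did not pass were the centrin Cetn3 (0.20 ± 0.33, adjusted p = 0.661) and the ubiquitin ligase Trim37 (0.69 ± 0.38, adjusted p = 0.178). Sass6, the cartwheel protein that works with Stil, is named here after its value was seen. It read 5.66, 5.92 and 7.01 in quiescent and 8.71, 8.45 and 9.60 in activated cells and was at least 5.95-fold higher (adjusted p = 0.00422). Cep192, a further receptor for Plk4 that was likewise chosen afterwards, differed by 1.99 ± 0.34 (adjusted p = 0.00152).

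Of 27 tested genes in a broad list drawn up around the pericentriolar material, where Cdk5rap2 acts, 9 rose and 0 fell. The median difference was 0.80, and without quiescent array 3 the number that fell was 1. The list also holds genes such as Azi2, Cdk5rap3, Cep290 and Ofd1, so its values do not describe that material alone. The midbody and centrosome protein Cep55 was at least 22.3-fold higher (adjusted p = 0.00017), gamma-tubulin Tubg1 differed by 2.94 ± 0.51 (adjusted p = 0.00151) and the ring complex subunit Tubgcp3 by 2.68 ± 0.61 (adjusted p = 0.00707). The microtubule polymerase Ckap5 (0.36 ± 0.26, adjusted p = 0.31) and the kinase anchor Akap9 (-0.35 ± 0.39, adjusted p = 0.511) did not pass. Nor did pericentrin (Pcnt, 0.41 ± 0.41, adjusted p = 0.459), the binding partner of Cdk5rap2, which was named after its value was seen. With arrays centred on their medians 17 genes of this list were called higher and with the hybridisation controls 14.

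Genes of the spindle pole, where Aspm and Wdr62 act, rose more widely. Of 38 tested genes 23 rose and 2 fell, with a median difference of 2.00. The microtubule-associated protein Ckap2 was at least 22.7-fold higher (adjusted p = 0.000628), the hyaluronan receptor and spindle protein Hmmr at least 30.4-fold (adjusted p = 6.27e-05) and the mitotic kinase Aurka at least 27.8-fold (adjusted p = 0.000274). Aurka differed by 5.06, and by 2.91 with the mean of probe sets (adjusted p = 0.00106). The genes that fell were the microtubule plus-end protein Clasp2, which fell by 1.12 ± 0.23 (adjusted p = 0.00382), and Tacc1, which fell by 1.12 ± 0.27 (adjusted p = 0.00902) and was named after its value was seen. Neither was called with arrays centred on their medians or scaled to the hybridisation controls. The dynein regulator Pafah1b1 (-0.15 ± 0.24, adjusted p = 0.663) and the microtubule minus-end protein Camsap2 (-0.48 ± 0.25, adjusted p = 0.155) did not pass.

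Other genes of inherited microcephaly moved in both directions. Of 32 tested genes 14 rose and 1 fell, with a median difference of 1.40. Without quiescent array 3 the number that fell was 2. The checkpoint kinase Bub1 was at least 18.1-fold higher (adjusted p = 0.00795, a fitted difference of 6.51 that was 4.18 with values raised to background), the G1 kinase Cdk6 differed by 4.96 ± 0.41 (adjusted p = 3.91e-05) and the kinetochore motor Cenpe was at least 17.3-fold higher (adjusted p = 0.000199). Mfsd2a, a lipid transporter, read 11.29, 10.79 and 11.11 in quiescent and 6.41, 7.16 and 7.31 in activated cells and fell by 4.10 ± 0.39 (adjusted p = 6.53e-05). Mfsd2a is known for its role in endothelial cells, and the endothelial markers given above were lower in activated cells too. Their part in this value was not tested. The coatomer subunit Copb2 (-0.12 ± 0.37, adjusted p = 0.826) and the nuclear envelope protein Ankle2 (-0.36 ± 0.28, adjusted p = 0.331) did not pass.

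Plk4, Cep152, Stil and Cep63 also serve the mass production of centrioles in multiciliated ependymal cells. Of 14 matched further genes of that programme, 8 were bright enough to be tested, of which 3 rose and 0 fell, with a median difference of 1.03. That median was 0.61 without quiescent array 1 and 1.58 without quiescent array 2, and 0.67 with 64 added to the linear signals. Foxj1 and Spag6 belong to this list but were too dim to be tested, so the counts and the median leave them out. Foxj1 read 8.07, 7.59 and 6.65 in quiescent and 5.88, 1.70 and 4.91 in activated cells. The transcription factor Myb, read by a probe set that can cross-hybridise (1421317_x_at), was at least 18.6-fold higher (adjusted p = 0.000206), the E2F partner Tfdp1 differed by 2.09 ± 0.31 (adjusted p = 0.000602) and the cyclin Ccna1 was at least 3.17-fold higher (adjusted p = 0.0248). The Ccna1 call was lost with values raised to background (adjusted p = 0.0506) and without quiescent array 1 (adjusted p = 0.0584) or 3 (adjusted p = 0.0521). Myb, Tfdp1 and Ccna1 are also genes of cell proliferation. The ciliary regulators Rfx3 (-0.66 ± 0.27, adjusted p = 0.0776) and Rfx2 (0.78 ± 0.66, adjusted p = 0.376) did not pass.

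General proliferation genes had the highest median of the 6 lists. Of 25 tested genes 23 rose and 0 fell, with a median difference of 4.19. Bub1, named above among the microcephaly genes, is also in this list and had its largest fitted difference (6.51). Top2a was at least 51.6-fold higher (adjusted p = 0.000298), Bub1b at least 24.3-fold (adjusted p = 0.000687) and Aurkb at least 23.8-fold (adjusted p = 0.00222). With the mean of probe sets the differences of Top2a (5.98) and Bub1b (5.91) were 3.53 and 3.47, both called. Lin54 (0.83 ± 0.36, adjusted p = 0.0972) and E2f1 (0.85 ± 0.48, adjusted p = 0.191) did not pass. Whether the 10 genes follow proliferation more or less closely than other genes was not tested.

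**Figure D4:**
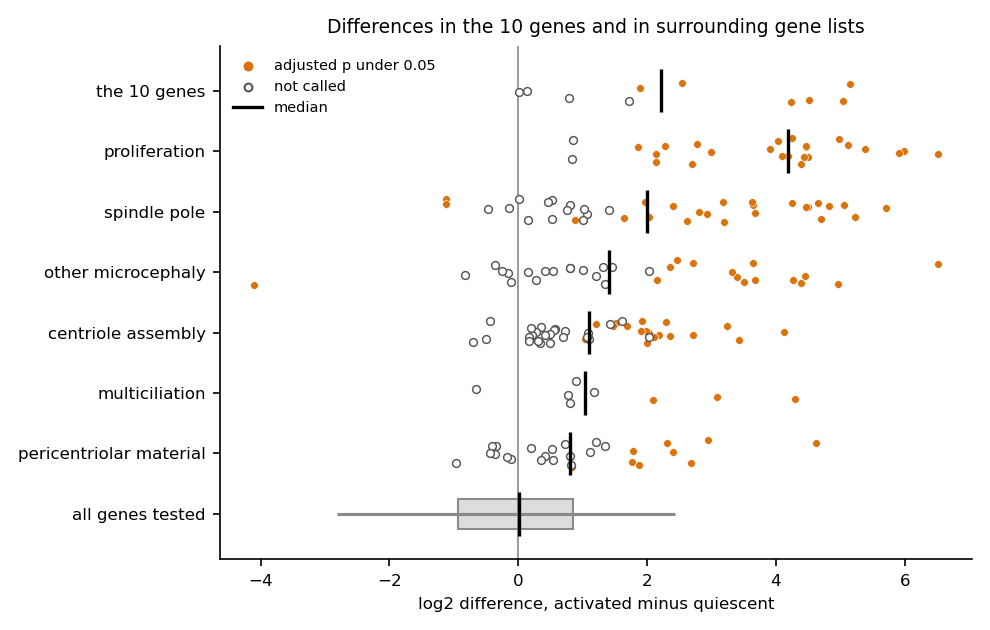
Log2 difference, activated minus quiescent, of each tested gene in the 10 genes and in the 6 surrounding lists (points, filled where the adjusted p was under 0.05, spread vertically for legibility), with medians as black bars. The grey box spans the quartiles of all 11575 genes and its line the 5th to the 95th percentile, and the medians fall from 4.19 for proliferation to 0.80 for pericentriolar material, against 0.01 for all genes.

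For 2 of the genes, the tested genes outside the 10 whose profile over the 6 arrays was most similar were found by the root mean square difference between profiles, each centred on its own mean. Closest to Aspm were Dpysl3, a microtubule-binding protein of young neurons (0.235 on the log2 scale), Cdca8, a subunit of the chromosomal passenger complex (0.257), and Spc25, a kinetochore protein (0.259). Their differences of 4.35 ± 0.41, 4.18 ± 0.45 and 4.23 ± 0.38 were close in size to that of Aspm, and quiescent array 2 was their highest quiescent array. Closest to Plk4 were 2700038G22Rik (0.285), Eda2r (0.423) and Dcakd (0.436), in which quiescent array 3 was the highest of its group, as at the Plk4 probe set used. The other Plk4 probe sets were highest on quiescent array 2. These genes had 1, 2 and 1 quiescent arrays at background, and Plk4 had 1, so noisy values enter this likeness. The quiescent means of 2700038G22Rik (4.96) and Eda2r (3.97) were below the filter level. These profiles have 6 points in separate groups, so the likeness mostly restates the difference between groups. As the genes were chosen for likeness, a shared highest quiescent array is not a separate result.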

How the data were processed

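Sorted cells gave total RNA (miRNeasy), which was amplified by NuGEN Pico chemistry, labelled with biotin and hybridised to one-colour Affymetrix arrays, per the labels' protocols. The deposited values are log2 signals from MAS5, named in the submitters' processing notes without a version. The linear 2% trimmed mean was 500.0 on every array, so differences in total RNA per cell are removed, and MAS5 values near background are noisy. Of 45101 probe sets, 64 controls were left out, 34945 named 1 gene, 932 several and 9160 none. Entrez identifiers gave current symbols through a RefSeq table (99.4% matched). Genes were represented by their brightest probe set and kept at a mean log2 signal of at least the 40th percentile over non-control probe sets. The comparison used limma 3.58.1 in R 4.3.3 (lmFit, then eBayes with its trend option), for 11575 genes and again for 22607 probe sets of 1 gene, with Benjamini-Hochberg adjustment over each table. Where the lower group had an array at background, the fold was taken against the larger of background and signal. It is a bound only with respect to those values at 1 probe set, and is not a confidence limit. The calculation was tested on simulated data. Figures were drawn with matplotlib 3.10.9.

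The members and lists were chosen with earlier results of these data known. The genes named were the 10 members and, except where stated, a fixed selection from each list, leaving out genes already named for another list. From the rest, the selection took the 3 with the largest difference among those called in the prevailing direction of the list. It also took 1 called in the opposite direction and the 2 brightest that were not called. Members were left out of the lists, which share some genes. Same-numbered arrays did not deviate together (correlations of -0.02 to 0.06), so the numbers were not treated as pairs. Arrays correlated at 0.834 to 0.861 among quiescent, 0.895 to 0.903 among activated and 0.742 to 0.804 between groups.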

Additional observations from a re-analysis of the deposited data

How the results depend on the processing

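Of the 10 genes, the number called higher was 8 with arrays centred on their medians, with the mean of probe sets and when any probe set counted, 7 after quantile normalization, with hybridisation-control scaling and without quiescent array 3, and 5 with the filter at the median. It ranged from 5 to 7 with each array left out. None was called lower under any of these. Fitting the replicate number as a block gave 6 higher and 0 lower and changed no count over 1.5 times. Of 186 alternative differences of the 10 genes, 179 stayed on the same side of the threshold and 7 gained a call. The uncalled differences of Mcph1 (-0.07 to 0.99) and Cep63 (-0.78 to 0.66) changed sign among them. Wdr62 was tested in 15 of the 19 settings. It fell below the filter with the filter at the median and without any 1 activated array, and those settings are not among the 186.

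With arrays centred on their medians, 3527 of all genes were called higher and 1191 lower, 22 other microcephaly genes and 17 pericentriolar genes were higher and 0 spindle pole genes were lower. With hybridisation-control scaling these were 3059 higher and 943 lower among all genes, 14 pericentriolar genes higher and 0 spindle pole genes lower. The multiciliation list had 1 lower gene with 16 or 64 added to the linear signals, with values raised to background, after quantile normalization, with no filter and by probe set. The pericentriolar list had 1 lower with 64 added, with the mean of probe sets and by probe set. With each array left out, the numbers lower ranged from 1 to 2 (other microcephaly), 0 to 1 (centriole assembly) and 0 to 1 (pericentriolar), the number of centriole assembly genes higher from 11 to 19 and that of all genes higher from 1291 to 2453. The list medians rose with either scaling, the pericentriolar one to 1.35 and 1.44. The order of the centriole assembly, pericentriolar and multiciliation medians was not the same in every setting. The cause of these shifts was not tested. Signals at background limit the quiescent values of Wdr62, Stil, Plk4 and Cep152.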
